A study of Mus musculus with 22 samples.

Results

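Endothelial cells line the blood vessels and the chambers of the heart, and 10 genes that mark them were followed in the ventricles of embryonic mice. The genes were taken by symbol from the gene counts of both RNA-seq experiments, where each matched 1 of 48709 genes. The set holds 6 pan-endothelial genes (Pecam1, Cdh5, Tek, Tie1, Kdr and Flt1), 2 genes grouped here as capillary and venous (Emcn, which the endocardium carries too, and Plvap) and 2 genes of the endocardium (Npr3 and Nfatc1). All 10 passed the filter on low counts in both experiments, with 527 to 3011 counts per library in the first experiment and 115 to 800 in the second.

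Endothelial cells adhere to each other through proteins such as PECAM1 and VE-cadherin (Cdh5), and they sense growth factors through receptor tyrosine kinases of the VEGF family (Kdr, Flt1) and of the angiopoietin family (Tek, Tie1). In the developing heart the endocardium lines the chambers, shapes the trabeculae and valves, and contributes to the coronary vessels. Endocardial cells carry the pan-endothelial genes and, in addition, Npr3, the clearance receptor for natriuretic peptides, and Nfatc1, a transcription factor that calcineurin activates and that valve formation needs.

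The ventricles were collected at stage E13.5 of embryonic development from mice on a C57/Bl6 background, and every group carried Nkx2.5-Cre, a recombinase active in cardiac precursor cells. The groups differed in Lin9 and in Sav1. LIN9 is a subunit of MuvB, a complex that regulates cell cycle genes. SAV1 is a scaffold protein of the Hippo pathway, which restrains YAP. The first experiment compared LIN9 KO (Lin9 fl/fl) with LIN9 wt, and the second crossed LIN9 KO or LIN9 wt with Sav1 KO (Sav1 fl/fl) or Sav1 wt (Sav1 +/+), with 3 libraries in each of the 6 groups. The groups labelled LIN9 wt carried a floxed Lin9 allele beside a normal one (Lin9 fl/+) according to the study, so the controls too carried an allele open to recombination. LIN9 wt with Sav1 wt is called control below, and LIN9 KO with Sav1 KO is called double KO. The design asked how loss of LIN9, of Sav1 or of both changed the ventricular transcriptome. How far Nkx2.5-Cre recombined in the endothelial cells themselves is not given in the sources used here. A legend of the study describes LIN9 KO and LIN9 wt as compared in separate biological replicates with triplicates inside each. Between 2 libraries of a group, the chi-square of the counts was 5.64 to 26.4 per gene in the first experiment and 1.22 to 21.5 in the second, where sampling noise alone gives about 1. Whether these libraries came from separate embryos is not given in the sources used here, and p-values measure only the spread between them.

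Libraries held 9485599 to 9615274 counts in the first experiment and 2770741 to 2999877 in the second. Levels are given as CPM, counts scaled to the library size with TMM factors. The deleted exons are only part of each targeted gene, and reads from the rest of the gene still count towards its total, so the totals check the labels only in part. Lin9 was at 21.39 to 29.8 CPM in the controls and 19.2 to 21.36 CPM in LIN9 KO of the first experiment. These ranges lay next to each other without overlap, and replicate 2 of both groups held 203 counts. The log2 fold change was -0.31 (adjusted p = 0.130 by edgeR's quasi-likelihood test). In the second experiment Lin9 was at 23.2 to 29.2 CPM in the controls, 13.1 to 17.9 in LIN9 KO, 19.2 to 31.4 in Sav1 KO and 18.5 to 26.04 in the double KO, so the double KO libraries overlapped the Sav1 KO libraries (log2 fold change -0.16, adjusted p = 0.586). Sav1, which shares 25.4% of its exon bases with Atl1 on the opposite strand, was at 54.5 to 61.9 CPM in the controls, 47.3 to 51.9 in LIN9 KO, 36.1 to 43.0 in Sav1 KO and 40.5 to 43.9 in the double KO. The 10 cardiomyocyte markers summed to 22080 to 25580 CPM in the 9 libraries of LIN9 wt groups and all 10 endothelial genes were detected in every library.

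Per kilobase of exon, VE-cadherin was the most abundant of the 10 genes in the controls of the first experiment, at 44.8 ± 10.0 CPM per kilobase (SD, n = 3). Tie1 followed at 41.2 ± 3.96, Plvap at 40.6 ± 6.74 and Tek at 37.4 ± 5.02, and these 4 genes overlapped their neighbours in the order between libraries. Pecam1 was at 28.5 ± 4.05, Npr3 at 19.2 ± 1.12, Kdr at 13.52 ± 2.53, Emcn at 12.7 ± 0.664, Nfatc1 at 8.77 ± 1.01 and Flt1 at 5.55 ± 0.393. From Pecam1 downwards, neighbours in that order did not overlap between libraries, except Kdr and Emcn. In the controls of the second experiment VE-cadherin was again highest, at 45.8 ± 1.56 CPM per kilobase, and Flt1 was again lowest, at 5.97 ± 0.118. Npr3 was there at 21.2 ± 1.97 and Nfatc1 at 8.84 ± 0.688, so the endocardial receptor gene lay in the middle of the order and the endocardial transcription factor gene near its lower end.

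**Figure D1:**
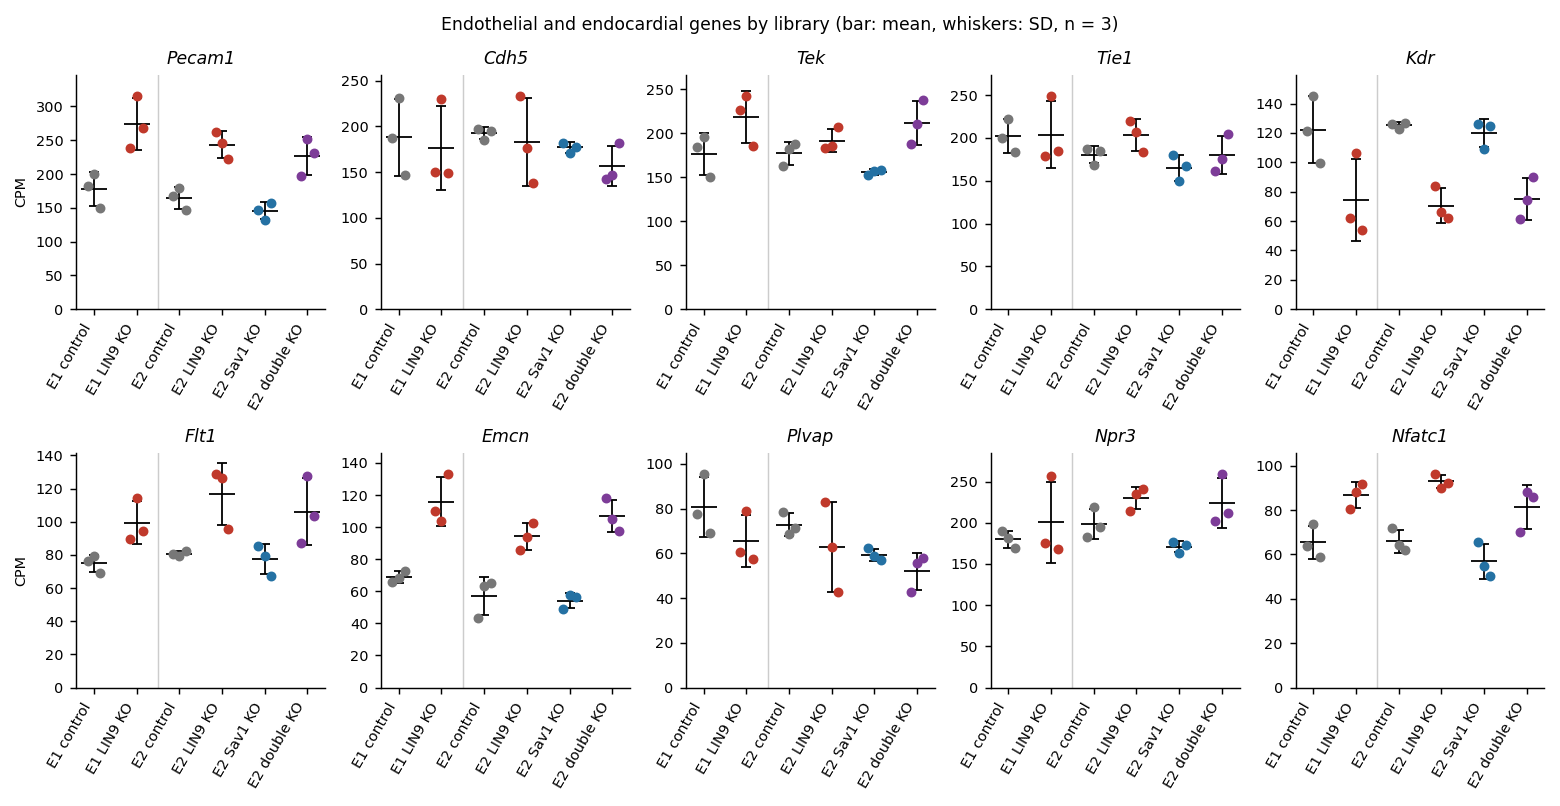
Level of each of the 10 genes in CPM in every library (points), by genotype group, with the mean (bar) and SD (whiskers, n = 3). The vertical line separates the first experiment (E1) from the second (E2). Kdr was lower, and Pecam1, Flt1, Emcn and Nfatc1 were higher, in most LIN9 KO and double KO libraries than in the libraries with LIN9 wt.

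Loss of LIN9 went with higher levels of Pecam1, Flt1, Emcn and Nfatc1 and a lower level of Kdr, while Cdh5, Tie1 and Plvap did not pass edgeR's test without a block in the comparisons of LIN9 genotypes on all libraries. In the first experiment 4 of the 10 genes rose (Pecam1, Flt1, Emcn and Nfatc1) and none fell at an adjusted p below 0.05, where 20.9% of the 19752 genes tested were called, 11.1% as higher and 9.78% as lower. In the second experiment, with Sav1 wt, 4 rose (again Pecam1, Flt1, Emcn and Nfatc1) and Kdr fell, where 23.2% of 17675 genes were called, 12.7% as higher and 10.5% as lower. With Sav1 KO, 6 rose (Tek and Npr3 besides) and Kdr fell, where 23.4% of genes were called, 11.8% as higher and 11.6% as lower. The median log2 fold change of the 10 genes was 0.23, 0.19 and 0.42 in these comparisons, against 0.02, 0.01 and 0.03 over all genes tested. In ventricular tissue, fewer cells of a type and less RNA per cell cannot be told apart.

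Emcn encodes endomucin, a sialomucin on the surface of capillary and venous endothelium and of the endocardium, and lies at chr3:137341067-137432185 on the plus strand (GRCm38). In the first experiment it was at 65.8, 68.0 and 72.8 CPM in the controls and at 110.3, 104 and 133 CPM in LIN9 KO. In the second it was at 43.5, 63.0 and 65.0 CPM in the controls, 86.0, 94.1 and 103 in LIN9 KO, 48.8, 57.4 and 56.2 in Sav1 KO, and 118, 105 and 97.8 in the double KO. Every library without LIN9 was above every library with it in both experiments. The log2 fold change was 0.75 (SE 0.11, adjusted p = 0.000223, edgeR) in the first experiment, 0.72 (SE 0.13, adjusted p = 0.000126) in the second with Sav1 wt and 0.98 (SE 0.13, adjusted p = 2.00e-06) with Sav1 KO. Leaving out any library kept each of these calls, with log2 fold changes between 0.54 and 1.02.

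Pecam1 encodes the adhesion molecule CD31, which platelets and several kinds of leukocyte carry as well as endothelial cells. The gene lies at chr11:106654217-106750628 on the minus strand (GRCm38). It was at 182, 199.9 and 150.1 CPM in the controls and 239, 316 and 268 CPM in LIN9 KO of the first experiment. The second experiment had it at 168, 179 and 147 CPM in the controls, 263, 246 and 223 in LIN9 KO, 147, 133 and 158 in Sav1 KO, and 197, 252 and 232 in the double KO. The groups with and without LIN9 did not overlap. Its log2 fold change was 0.63 (SE 0.13, adjusted p = 0.00294, edgeR) in the first experiment, 0.56 (SE 0.11, adjusted p = 0.000249) with Sav1 wt and 0.64 (SE 0.11, adjusted p = 6.31e-05) with Sav1 KO in the second. These calls held without any 1 library, with log2 fold changes between 0.49 and 0.72. The 8 macrophage markers, genes of a leukocyte that can carry CD31, summed to 117 to 124 CPM in the controls and 217 to 225 CPM in LIN9 KO of the first experiment. In the second they summed to 126 to 134 CPM in the controls, 212 to 251 CPM in LIN9 KO, 103 to 127 CPM in Sav1 KO and 251 to 282 CPM in the double KO. Ptprc, the defining gene of leukocytes, rose from a mean of 1.59 to 3.26 CPM in the first experiment (adjusted p = 0.0324, edgeR) and from 2.37 in Sav1 KO to 10.01 CPM in the double KO (adjusted p = 0.000202). With Sav1 wt it was at 3.75 and 5.31 CPM (adjusted p = 0.424). The 4 megakaryocyte and platelet markers summed to 14.02 to 16.8 CPM in the controls and 31.8 to 44.2 CPM in LIN9 KO of the first experiment, and to 9.63 to 13.1 against 18.7 to 26.2 CPM in the second. Pf4 and Itga2b passed as higher in both, while none of the 4 passed with Sav1 KO, at 10.1 to 17.7 CPM against 13.0 to 23.1 CPM in the double KO. The part of leukocytes and platelets in the Pecam1 result was not tested.

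Kdr and Flt1 encode the 2 main VEGF receptors of blood vessels: VEGFR2 carries most of the signal, while VEGFR1, the product of Flt1, binds VEGF-A tightly and signals weakly. Kdr lies at chr5:75932827-75978458 and Flt1 at chr5:147561604-147726011, both on the minus strand (GRCm38). Kdr was at 122, 145 and 99.6 CPM in the controls and 62.3, 106 and 54.2 CPM in LIN9 KO of the first experiment. The groups overlapped there because of replicate 2 of LIN9 KO. The log2 fold change was -0.72 (SE 0.28) with an adjusted p of 0.134 by edgeR, and without that library it was -1.07 with an adjusted p of 0.000188. DESeq2 called it on all 6 libraries (-0.72, adjusted p = 0.00406). With replicate numbers as a block, edgeR called it as well (-0.76, adjusted p = 1.25e-05). In the second experiment Kdr was at 126, 123 and 127 CPM in the controls, 83.7, 66.2 and 61.8 in LIN9 KO, 126, 109 and 125 in Sav1 KO, and 61.3, 74.3 and 90.0 in the double KO. All 6 libraries without LIN9 were below all 6 with it. Its log2 fold change was -0.83 (SE 0.13, adjusted p = 1.44e-05) with Sav1 wt and -0.67 (SE 0.13, adjusted p = 0.000204) with Sav1 KO, and leaving out any library kept both calls.

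Flt1 moved the other way. It was at 76.4, 79.2 and 69.0 CPM in the controls and 89.8, 114 and 94.3 CPM in LIN9 KO of the first experiment. In the second it was at 80.4, 79.1 and 82.3 CPM in the controls, 129, 126 and 95.4 in LIN9 KO, 85.4, 79.3 and 67.5 in Sav1 KO, and 87.2, 127 and 104 in the double KO. The lowest library without LIN9 lay above the highest with it in both experiments. The log2 fold change was 0.41 (SE 0.11, adjusted p = 0.0163, edgeR) in the first experiment, 0.54 (SE 0.13, adjusted p = 0.00362) with Sav1 wt and 0.45 (SE 0.13, adjusted p = 0.0141) with Sav1 KO. The call in the first experiment was lost without LIN9 wt replicate 1 (0.42, adjusted p = 0.0614), LIN9 wt replicate 3 (0.36, adjusted p = 0.0895) or LIN9 KO replicate 2 (0.30, adjusted p = 0.0714). With Sav1 KO it was lost without Sav1 KO replicate 3 (0.36, adjusted p = 0.0939) or double KO replicate 2 (0.28, adjusted p = 0.183).

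A ratio of 2 genes within a library does not depend on the scaling between libraries. The ratio of Kdr counts to Flt1 counts was 1.44 to 1.83 in the controls and 0.575 to 0.931 in LIN9 KO of the first experiment. The second experiment had it 1.54 to 1.57 in the controls, 1.37 to 1.85 in Sav1 KO, 0.523 to 0.651 in LIN9 KO and 0.583 to 0.869 in the double KO. No library without LIN9 reached the lowest library with LIN9 in either experiment. For Emcn and Plvap, the pair grouped as capillary and venous, the ratio was 0.713 to 1.05 in the controls and 1.32 to 2.32 in LIN9 KO of the first experiment, and 0.555 to 0.920 against 1.04 to 2.40 in the second. The ratio of Pecam1 to Cdh5 was 0.867 to 1.03 in the controls and 1.37 to 1.80 in LIN9 KO of the first experiment. These 3 pairs were chosen after their changes were seen. The ratio of Tek to Tie1 was 0.815 to 0.918 in the controls and 0.973 to 1.27 in LIN9 KO of the first experiment, and overlapped in the second, at 0.870 to 1.08 against 0.833 to 1.13. For the endocardial pair, Npr3 to Nfatc1, the groups overlapped in both experiments, at 2.46 to 2.97 against 1.84 to 2.92 and at 2.54 to 3.40 against 2.23 to 2.61. With 3 libraries against 3, a two-sided exact permutation test cannot give a p below 0.1, so the ratios are given as ranges.

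**Figure D2:**
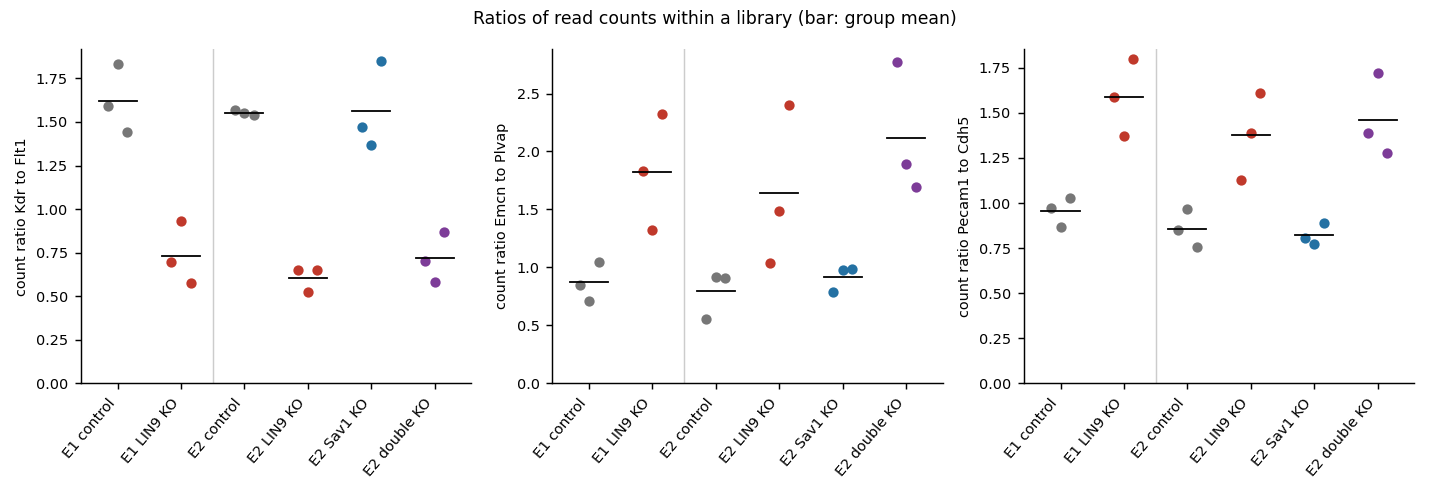
Ratio of the read counts of 2 genes within each library (points) with the group mean (bar), for Kdr to Flt1, Emcn to Plvap and Pecam1 to Cdh5. E1 and E2 are the first and the second experiment, and the Kdr to Flt1 ratio is below 1 in every library without LIN9 and above 1 in every library with it.

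The stretches before the start sites of genes that moved in opposite directions are shown for comparison, since LIN9 is part of a complex that binds promoters. They come from RefSeq on build GRCm38.p6, which held an entry for 6 of the 10 genes (Tek, Tie1, Kdr, Flt1, Emcn and Npr3) and none for Pecam1, Cdh5, Plvap and Nfatc1. Each is the 250 bases before the start, read 5′ to 3′ on the strand of the gene. Kdr is at chr5:75978456-75978705 on the minus strand, Flt1 at chr5:147726012-147726261 on the minus strand, Emcn at chr3:137340828-137341077 on the plus strand and Tek at chr4:94739039-94739288 on the plus strand. Capitals mark matches, on either strand, to letters of 4 kinds of factor. For ETS factors, which most endothelial genes use, the letters were CAGGAA and, as another spelling, CCGGAA. For the CHR element that MuvB binds they were TTTGAA and, as another spelling, TTCGAA. For TEAD factors, the partners of YAP, they were CATTCC, and for GATA factors they were GATAAG.

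Kdr: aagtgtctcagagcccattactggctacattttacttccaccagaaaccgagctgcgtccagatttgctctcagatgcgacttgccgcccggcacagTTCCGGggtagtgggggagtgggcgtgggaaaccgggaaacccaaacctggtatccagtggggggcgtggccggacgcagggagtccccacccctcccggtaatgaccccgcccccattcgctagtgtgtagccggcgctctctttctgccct

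Flt1: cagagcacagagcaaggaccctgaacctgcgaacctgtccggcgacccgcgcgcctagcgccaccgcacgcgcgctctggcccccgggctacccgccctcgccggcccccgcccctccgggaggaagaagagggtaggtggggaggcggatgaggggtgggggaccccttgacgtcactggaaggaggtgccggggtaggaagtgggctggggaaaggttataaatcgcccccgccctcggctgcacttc

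Emcn: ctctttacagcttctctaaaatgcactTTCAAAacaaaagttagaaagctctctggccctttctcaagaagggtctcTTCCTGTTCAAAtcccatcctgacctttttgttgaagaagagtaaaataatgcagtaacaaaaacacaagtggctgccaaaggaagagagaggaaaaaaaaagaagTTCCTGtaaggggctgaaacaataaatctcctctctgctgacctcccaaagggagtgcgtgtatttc

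Tek: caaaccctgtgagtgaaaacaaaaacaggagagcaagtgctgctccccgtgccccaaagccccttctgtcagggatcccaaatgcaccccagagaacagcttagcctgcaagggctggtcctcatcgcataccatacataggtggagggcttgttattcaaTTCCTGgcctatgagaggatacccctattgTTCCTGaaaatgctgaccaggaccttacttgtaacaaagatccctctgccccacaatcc

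The CHR letters TTTGAA appeared in the Emcn stretch alone among the 6, at 2 places, starting 223 and 167 bases before the start, and both were on the opposite strand. At least 1 of the 2 CHR spellings occurred in 17.1% of the 32851 promoter stretches of the same length. ETS letters occurred in 4 of the 6 genes (Tek, Tie1, Kdr and Emcn) against 35.1% of all stretches, and the ETS letters of Emcn that start 173 bases before the start end directly before its second CHR match, without overlap. TEAD letters (12.6% of all stretches) and GATA letters (6.55%) occurred in none of the 6. Only these spellings were searched, so a stretch without a match, such as that of Flt1, is not shown to lack sites for these factors. A match is a run of letters, not a bound site, and the LIN9 ChIP-seq samples of the series were not analysed here.

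Nfatc1 and Npr3, the endocardial genes, had log2 fold changes above 0 in all 3 pairs of LIN9 genotypes, and their difference was not tested. Nfatc1 was at 64.0, 73.7 and 58.8 CPM in the controls and 80.4, 88.2 and 91.6 CPM in LIN9 KO of the first experiment. In the second it was at 71.8, 64.4 and 61.9 CPM in the controls, 96.2, 90.1 and 92.4 in LIN9 KO, 65.6, 54.7 and 50.5 in Sav1 KO, and 70.2, 88.3 and 85.7 in the double KO. LIN9 KO and its control did not overlap in any of the 3 pairs of groups. Its log2 fold change was 0.41 (SE 0.11, adjusted p = 0.0141, edgeR) in the first experiment, 0.49 (SE 0.12, adjusted p = 0.00249) with Sav1 wt and 0.52 (SE 0.12, adjusted p = 0.00199) with Sav1 KO. In the first experiment the call was lost without LIN9 wt replicate 1 (0.39, adjusted p = 0.0732) or LIN9 wt replicate 3 (0.34, adjusted p = 0.0882).

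Npr3 lies at chr15:11839896-11907287 on the minus strand (GRCm38), and 3.4% of its exon bases lie under Gm5144 on the opposite strand, whose reads cannot be told apart if strand was not used in the counting. It was at 189.7, 181 and 169 CPM in the controls and 176, 257 and 169 CPM in LIN9 KO of the first experiment, where replicate 2 of LIN9 KO stood apart. The second experiment had it at 182, 219 and 195 CPM in the controls, 215, 235 and 241 in LIN9 KO, 176, 164 and 173 in Sav1 KO, and 202, 259 and 212 in the double KO. The groups overlapped in the first experiment and with Sav1 wt, and were apart with Sav1 KO. The log2 fold change was 0.16 (SE 0.15, adjusted p = 0.514, edgeR) in the first experiment and 0.21 (SE 0.10, adjusted p = 0.149) with Sav1 wt. Without LIN9 KO replicate 2 the value of the first experiment was -0.06. With Sav1 KO it was 0.39 (SE 0.10, adjusted p = 0.00611), which fell to 0.25 (adjusted p = 0.117) without double KO replicate 2.

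Set against the mean log2 CPM of the 6 pan-endothelial genes of the same library, Npr3 lay 0.10 to 0.41 higher in the controls and 0.29 to 0.41 higher in LIN9 KO of the first experiment. In the second experiment the range was 0.31 to 0.58 in the controls, 0.31 to 0.80 in LIN9 KO, 0.32 to 0.35 in Sav1 KO and 0.38 to 0.76 in the double KO. Nfatc1 lay below the pan-endothelial mean, at -1.23 to -1.11 in the controls and -1.14 to -0.59 in LIN9 KO of the first experiment, and at -1.25 to -1.03 against -0.84 to -0.58 in the second. In Sav1 KO it was at -1.42 to -1.10 and in the double KO at -0.92 to -0.79. For Npr3 the groups overlapped in the first experiment and with Sav1 wt, and for Nfatc1 only in the first.

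Tek and Tie1 encode the angiopoietin receptor TIE2 and its partner receptor TIE1. Tek was at 184, 195 and 149.9 CPM in the controls and 226, 242 and 186 CPM in LIN9 KO of the first experiment. In the second it was at 162, 182 and 187 CPM in the controls, 183, 185 and 207 in LIN9 KO, 152, 158 and 158 in Sav1 KO, and 188, 210.5 and 238 in the double KO. Among the 3 pairs of LIN9 genotypes, Tek was called by the fit without a block only in that with Sav1 KO (log2 fold change 0.44, SE 0.10, adjusted p = 0.00175, edgeR), and there every double KO library was above every Sav1 KO library. With Sav1 wt the log2 fold change was 0.11 (adjusted p = 0.483). The test of the difference between these changes gave 0.33 on the log2 scale (95% interval 0.04 to 0.62, adjusted p = 0.733), so the changes were not shown to differ. In the first experiment the log2 fold change was 0.31 (adjusted p = 0.107), and it passed without LIN9 KO replicate 3 (0.41, adjusted p = 0.0130) and with replicate numbers as a block (0.31, adjusted p = 0.0110). Tie1 was at 184 to 223 CPM in the controls and 179 to 249 CPM in LIN9 KO of the first experiment, with log2 fold changes of 0.01, 0.18 and 0.12 in the 3 comparisons of LIN9 KO and adjusted p between 0.256 and 0.967.

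Cdh5 and Plvap did not pass the test in these comparisons. Cdh5, which encodes VE-cadherin of the endothelial junctions, was at 188, 231 and 146 CPM in the controls and 150.5, 230.0 and 149 CPM in LIN9 KO of the first experiment. The second experiment had it at 198, 185 and 195 CPM in the controls and 233, 176 and 138 CPM in LIN9 KO. The spread within LIN9 KO was wider than the difference of the means, and the log2 fold change was -0.09 (95% interval -0.57 to 0.39) and -0.07 (-0.37 to 0.22). Plvap encodes the protein of the diaphragms that span endothelial fenestrae and caveolae. It was at 77.4, 95.4 and 69.2 CPM against 60.4, 78.7 and 57.3 CPM in the first experiment and at 78.4, 68.5 and 71.2 CPM against 82.7, 62.9 and 42.8 CPM in the second. Its log2 fold change was -0.30 (adjusted p = 0.160, edgeR) and -0.20 (adjusted p = 0.465). In the first experiment it passed as lower once replicate numbers entered the fit as a block (-0.30, adjusted p = 0.0180). Without LIN9 KO replicate 2 in the first experiment Plvap passed as lower (-0.46, adjusted p = 0.0236), and without LIN9 KO replicate 1 in the second both Plvap (-0.47, adjusted p = 0.0148) and Cdh5 (-0.31, adjusted p = 0.0438) did.

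**Figure D3:**
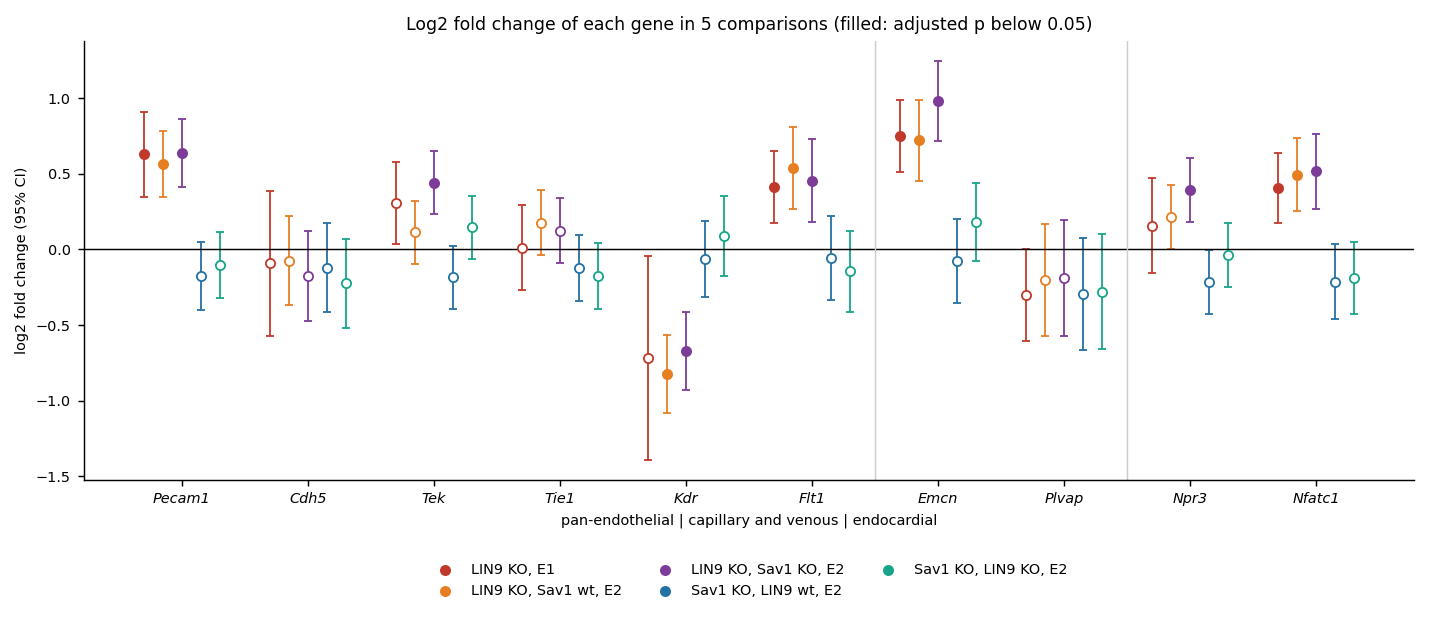
Log2 fold change of the 10 genes with its 95% interval in 5 comparisons, 3 of LIN9 KO against LIN9 wt and 2 of Sav1 KO against Sav1 wt, from edgeR's quasi-likelihood fit. Filled points had an adjusted p below 0.05 over all genes tested; Kdr lies below 0 in the 3 LIN9 comparisons, and no point of a Sav1 comparison is filled.

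Averaged over both Sav1 genotypes of the second experiment, 7 of the 10 genes passed, where 35.8% of all genes did, 18.7% as higher and 17.1% as lower. Emcn (0.85), Pecam1 (0.60), Nfatc1 (0.50), Flt1 (0.50), Npr3 (0.30) and Tek (0.28) rose on the log2 scale and Kdr fell by 0.75, with adjusted p between 2.00e-08 and 0.00287. Cdh5 was at -0.13 (adjusted p = 0.356), Plvap at -0.20 (adjusted p = 0.248) and Tie1 at 0.15 (adjusted p = 0.121). Without LIN9 KO replicate 1, Cdh5 (-0.24, adjusted p = 0.00979) and Plvap (-0.33, adjusted p = 0.00651) passed as lower and the count was 9. There 38.2% of all genes were called.

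The double KO was also compared with the controls, which it shares with the comparisons of LIN9 KO and of Sav1 KO. Emcn (0.90, SE 0.13, adjusted p = 8.17e-06, edgeR), Pecam1 (0.46, SE 0.11, adjusted p = 0.00249) and Flt1 (0.40, SE 0.13, adjusted p = 0.0352) rose, and Kdr fell by 0.74 on the log2 scale (SE 0.13, adjusted p = 7.87e-05). That is 4 of 10 genes, where 20.6% of all genes were called, 10.7% as higher and 9.96% as lower. Nfatc1 (0.30, adjusted p = 0.0705), Tek (0.26, adjusted p = 0.0685), Npr3 (0.18, adjusted p = 0.249) and Tie1 (-0.0001) did not pass. Nfatc1 passed without double KO replicate 1 (adjusted p = 0.0388), as did Tek (adjusted p = 0.0415). Plvap was at 42.6, 55.6 and 58.0 CPM in the double KO and at 68.5 to 78.4 CPM in the controls, without overlap, and its log2 fold change was -0.48 (adjusted p = 0.0660). Cdh5 was at 142, 146 and 181 CPM against 185 to 198 CPM, also without overlap (-0.30, adjusted p = 0.149). Both passed with no filter on low counts (adjusted p = 0.00135 for Plvap and 0.0286 for Cdh5) and in a fit of these 2 groups alone (0.00661 and 0.0422). Without double KO replicate 2 the count fell to 2, with 14% of all genes called, since Pecam1 (0.34, adjusted p = 0.0528) and Flt1 (0.21, adjusted p = 0.354) were lost. Flt1 also missed the threshold at a similar fold change without any 1 of the 3 controls (0.36 to 0.41, adjusted p = 0.0785 to 0.104) or double KO replicate 3 (0.38, adjusted p = 0.0830), and under DESeq2 (0.39, adjusted p = 0.0760). The count was 6 without LIN9 KO replicate 1, LIN9 KO replicate 3 or double KO replicate 1, where 24.2%, 22.7% and 19.7% of all genes were called.

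Between Sav1 genotypes none of the 10 genes passed at an adjusted p below 0.05. Sav1 itself did not pass either, at -0.50 with LIN9 wt (adjusted p = 0.317, edgeR) and -0.23 with LIN9 KO (adjusted p = 0.465). Its libraries did not overlap in either pair, so the lack of a call does not show the lack of a change. With LIN9 wt, 3 of 17675 genes were called by edgeR (0.017%), and with LIN9 KO 2 were (0.0113%). No member was called by DESeq2 either, and at an unadjusted p below 0.05 there was 1 member with LIN9 wt (Npr3), where 3.93% of all genes were, and none with LIN9 KO, where 11.8% of all genes were. With LIN9 wt all 10 log2 differences lay below 0, between -0.29 and -0.06 with a median of -0.15, where the median over all genes was 0.00. Leaving out 1 library kept all of them below 0, except Flt1 (up to 0.03) and Emcn (up to 0.02). Plvap had the largest difference, at 62.2, 58.7 and 56.9 CPM in Sav1 KO against 78.4, 68.5 and 71.2 CPM in the controls (-0.29, 95% interval -0.67 to 0.08). Npr3 was lower by 0.22 (95% interval -0.43 to -0.003, adjusted p = 0.999). For 4 of the 10 genes (Tek, Cdh5, Plvap and Npr3) every Sav1 KO library was below every control library, where 6.14% of all genes were. With LIN9 KO, the differences lay between -0.28 (Plvap, 95% interval -0.66 to 0.10) and 0.18 (Emcn, -0.07 to 0.44). Averaged over both LIN9 genotypes, 8 genes passed of 17675 (0.0453%) and no member, although 2 members, Nfatc1 and Plvap, had an unadjusted p below 0.05, as did 8.85% of all genes. The test of whether the change with LIN9 loss differed between Sav1 wt and Sav1 KO called none of the 17675 genes by edgeR (0%) and no member by DESeq2. There were 1153 genes (6.52%) and 1 member, Tek, at an unadjusted p below 0.05.

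The levels of other cell types moved with LIN9 genotype as well. The 10 cardiomyocyte markers summed to 22080 to 22990 CPM in the controls and 10260 to 13830 CPM in LIN9 KO of the first experiment, and to 23190 to 24140 CPM against 10950 to 13790 CPM in the second. Of these, 8 fell in each comparison of LIN9 KO with LIN9 wt and none rose. Of all genes, 9.78%, 10.5% and 11.6% fell in the first experiment, with Sav1 wt and with Sav1 KO. The shares that rose were 11.1%, 12.7% and 11.8%. Of the 8 fibroblast and cushion markers 7, 7 and 8 rose, with median log2 fold changes of 1.08, 0.89 and 0.87, and of the 7 epicardial markers 6 rose each time, with medians of 1.00, 1.14 and 0.95. The erythroid markers, from red blood cells in the chambers and vessels, summed to 7916 to 10960 CPM in the controls and 34880 to 90760 CPM in LIN9 KO of the first experiment. The summed erythroid level was 4258 to 5347 CPM in the controls, 21190 to 39010 in LIN9 KO and 10690 to 30830 in the double KO of the second. The 6 mural markers did not move together, with medians of -0.07, 0.03 and -0.03. The median of the 6 pan-endothelial genes was 0.16, 0.14 and 0.28, and the part of these shifts in the changes of the 10 genes was not tested. Leaving the erythroid and mitochondrial genes out before the library sizes were set gave 4, 5 and 7 members called, where 20.9%, 23.2% and 23.4% of all genes were.

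Within the 3 groups of libraries without LIN9, Kdr, Cdh5 and Plvap put the libraries in the order of the summed cardiomyocyte markers, a pattern that was noticed after the values were seen. The summed mural markers gave the same order for these 3 genes in all 3 groups, though that sum mixes genes that rose and fell with LIN9 loss. The summed erythroid markers gave the reverse order in both groups of the second experiment. In LIN9 KO of the first experiment, replicates 1, 2 and 3 had 10720, 13830 and 10260 CPM of cardiomyocyte markers beside 62.3, 106 and 54.2 CPM of Kdr. In LIN9 KO of the second they had 13790, 12140 and 10950 CPM beside 83.7, 66.2 and 61.8 CPM of Kdr, and in the double KO 11320, 12680 and 13640 CPM beside 61.3, 74.3 and 90.0 CPM. Kdr, Cdh5 and Plvap kept this order in 3 of 3 such groups, Tek and Tie1 in 2, Pecam1, Flt1 and Npr3 in 1, and Emcn and Nfatc1 in none. Emcn had the exact reverse of the cardiomyocyte and of the mural order in all 3 of these groups, and Nfatc1 in none. In the 3 groups with LIN9 the order was kept in 2 for Cdh5 and Tie1, in 1 for Kdr, Plvap and Npr3 and in none for the other 5. With 3 libraries a group, these orders are descriptions and were not tested.

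**Figure D4:**
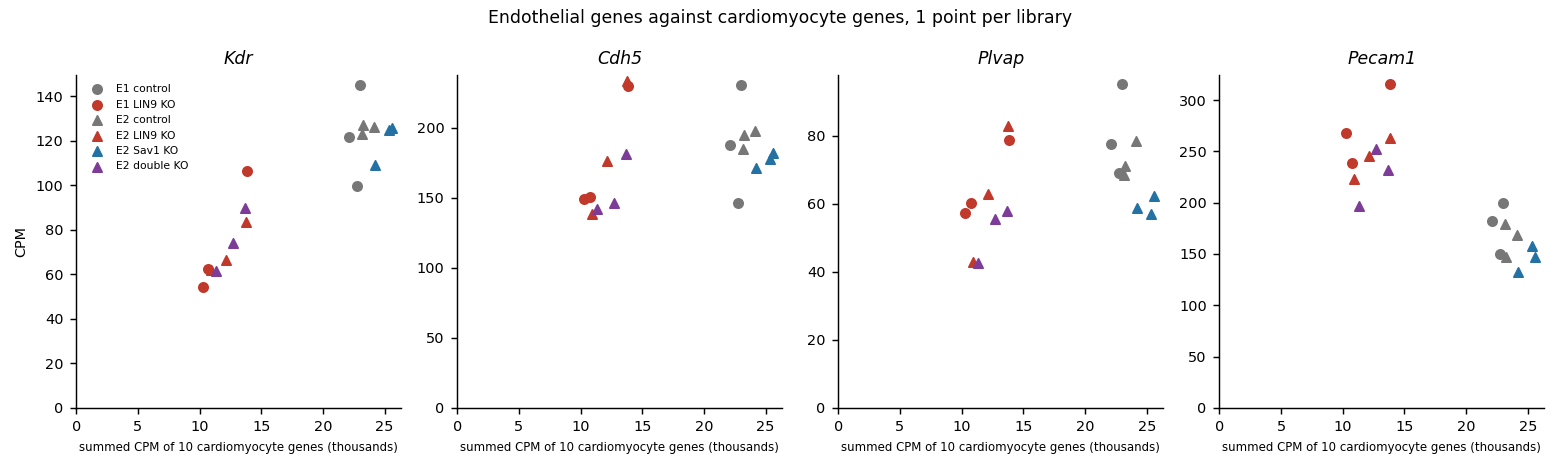
CPM of Kdr, Cdh5, Plvap and Pecam1 in each of the 18 libraries against the summed CPM of 10 cardiomyocyte genes. Circles are libraries of the first experiment (E1) and triangles of the second (E2); libraries without LIN9 (red, purple) lie between 10260 and 13830 CPM on the horizontal axis and those with LIN9 (grey, blue) between 22080 and 25580.

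The genes whose log2 CPM followed a member most closely over the 12 libraries of the second experiment were taken from 10866 genes with a mean of at least 10 CPM. The libraries share their genotype groups, and a likeness can come from the step between LIN9 wt and LIN9 KO as well as from variation within groups, which were not separated. For Pecam1 they were Sorl1 (r = 0.97), Laptm5 (0.97), Serpinf1 (0.97), Zfp532 (0.97) and Letmd1 (0.97), with r of 0.84 to 0.93 over the 6 libraries of the first experiment. For Npr3 they were Phf21a (0.94), Triap1 (0.92), Sdccag8 (0.92), Gk5 (0.91) and Ift88 (0.91), with r of -0.70 to 0.68 in the first experiment, the highest for Phf21a. Among the members, Pecam1 was most like Nfatc1 (0.91 in the second experiment and 0.96 in the first) and Flt1 (0.87 and 0.98), and least like Kdr (-0.75 and -0.40). Kdr, added here after its values were seen, was most like Pygm, the glycogen phosphorylase of muscle (0.99 and 0.90), and ran opposite to Emcn (-0.91 and -0.87).

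Other genes of the same vessels and of the endocardium were read from lists made for this purpose. Their counts stand against 20.9% of all genes called in the first experiment (11.1% higher, 9.78% lower) and 23.2% in the second with Sav1 wt (12.7% higher, 10.5% lower). Of 17 other pan-endothelial genes tested, 3 rose and 4 fell in the first experiment and 3 rose and 2 fell in the second with Sav1 wt, with medians of -0.17 and 0.05. Vwf, which encodes von Willebrand factor, rose by 1.43 (adjusted p = 0.00370, edgeR) and 2.16 (adjusted p = 2.38e-07) on the log2 scale. Ptprb, a phosphatase that acts on TIE2 and VE-cadherin, rose by 0.87 and 0.80. S1pr1, the receptor for sphingosine-1-phosphate that stabilises vessels, fell by 0.62 and 0.60, and Cldn5, a tight junction gene, fell by 0.57 in the first experiment and 0.90 in the double KO and was at -0.73 in the second with Sav1 wt (adjusted p = 0.0711). Of 15 and 14 endothelial transcription factors tested, 4 rose and 3 fell in the first experiment and 3 rose and 2 fell in the second, with medians of 0.01 and 0.00. Klf2, which responds to blood flow, fell by 0.88 and 0.81, and Tal1, a regulator of blood and endothelial cells, rose by 1.07 and 0.91. Sox17, which arterial endothelium uses, rose by 0.82 in the first experiment and 0.68 in the double KO and was at 0.65 in the second, where it did not pass, and Hhex rose by 0.56 and 0.91.

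Ligands of the 2 receptor families were read from a list with 9 genes tested, which also holds the receptor and co-receptor genes Flt4, Nrp1 and Nrp2. Angpt2 was not among the genes tested in the second experiment. Vegfa, the main ligand of Kdr and Flt1, rose by 1.14 on the log2 scale in the second experiment (adjusted p = 0.00120, edgeR) and by 0.94 in the double KO. It was at 0.67 in the first, where it did not pass. Vegfb, which binds Flt1, fell by 0.79, 0.55 and 0.93 in the first experiment, the second and the double KO. Angpt1, the agonist of TIE2, fell by 1.04, 0.87 and 0.79 in the same comparisons. Vegfd rose by 0.73 in the first experiment and 0.95 in the double KO, and was at 0.63 in the second. In all, 1 rose and 2 fell in the first experiment and in the second with Sav1 wt, with medians of 0.22 and 0.23, where 20.9% and 23.2% of all genes were called. With Sav1 KO 3 rose and 1 fell, where 23.4% of all genes were called, and over both Sav1 genotypes 4 rose and 2 fell, where 35.8% were.

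Of 6 other endocardial genes tested, 3 rose and 1 fell in the first experiment and 4 rose and none fell in the second with Sav1 wt, with medians of 0.61 and 0.33, where 11.1% and 12.7% of all genes rose and 9.78% and 10.5% fell. Gata5, an endocardial transcription factor, rose by 1.01 and 1.01, and Nrg1, the neuregulin that the endocardium sends to the myocardium, rose by 0.95 and 0.53. Hapln1, a link protein of the cardiac jelly, rose by 1.10 in the first experiment, 0.30 in the second and 0.45 in the double KO, and Cgnl1 rose by 0.36 in the second and was at 0.27 in the first. Adgrg6 was at 0.02 in the second with Sav1 wt and 0.14 in the double KO, and did not pass. Cytl1, at a mean of 2.54 CPM, was at -0.31 in the double KO and did not pass. Of 6 coronary and capillary genes, none passed in the first experiment, while 2 rose and 2 fell in the second with Sav1 wt, with medians of -0.03 and 0.09, against the same shares of all genes. There Aplnr, the apelin receptor of sprouting coronary vessels, fell by 1.41 and Fabp4, a fatty acid carrier of capillaries, by 0.57, while Rgcc rose by 1.05. In the first experiment these 3 genes were at -0.93, -1.05 and 0.92, where none passed. In the double KO Cd36, a fatty acid transporter, rose by 0.29.

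Of 7 arterial genes, 3 rose in the first experiment and in the second with Sav1 wt, and 1 fell in the first, with medians of 0.31 and 0.30, where 20.9% and 23.2% of all genes were called. Gja4, which encodes connexin 37, rose by 1.48 and 1.51, Hey1, a target of Notch, by 0.68 and 0.68, and Efnb2, the arterial ephrin, by 0.39 and 0.46. Bmx rose by 0.48 in the double KO and was at 0.31 and 0.30 in the 2 experiments, where it did not pass. Other arterial genes went the other way without passing. Gja5, at a mean of 3.11 CPM, was at -1.37 in the second experiment with Sav1 wt and -0.99 in the double KO. Dll4 was at -0.13 in the second with Sav1 wt. Of 5 venous and lymphatic genes, Prox1, which cardiomyocytes express too, fell by 0.89 and 0.62, and Pdpn, which encodes podoplanin and is active in the epicardium too, rose by 0.58 and 0.65. Around the endocardial members, Nppa and Nppb, the natriuretic peptides that NPR3 clears, rose by 1.59 and 1.63 in the first experiment and by 1.75 and 1.35 in the second, and the 2 natriuretic receptor genes Npr1 and Npr2 did not pass. Of 8 calcineurin and NFAT genes, Nfatc2 fell by 1.57 and 1.60 and Nfatc4 rose by 0.98 and 1.16. Ppp3ca, which encodes a catalytic subunit of calcineurin, rose by 0.36 in both experiments and 0.46 in the double KO. Rcan1, a target and inhibitor of calcineurin, fell by 0.43 in the second experiment and 0.47 in the double KO, and was at -0.18 in the first. No gene of these lists passed in a comparison of Sav1 genotypes or in the test of the difference between LIN9 changes, by edgeR.

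**Figure D5:**
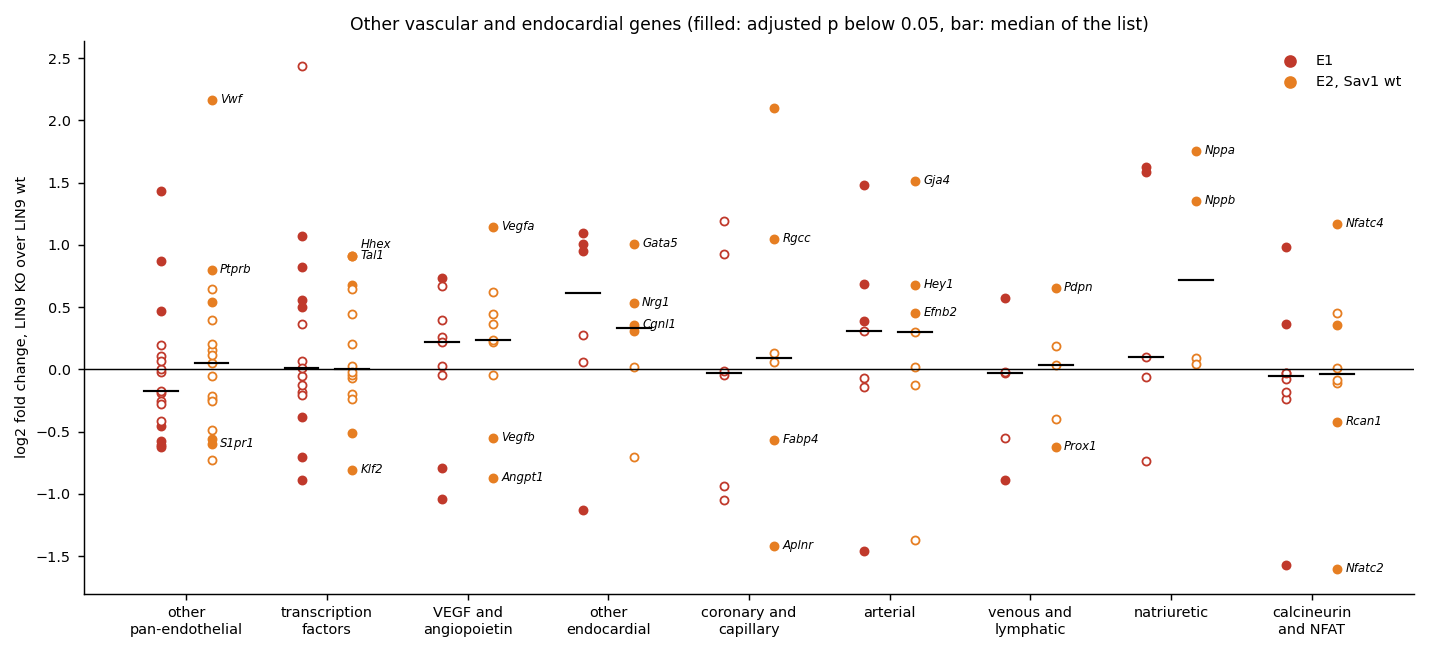
Log2 fold change of LIN9 KO over LIN9 wt for the other vascular and endocardial genes, 1 point per gene, in the first experiment (E1) and in the second with Sav1 wt (E2), with the median of each list (bar). Filled points had an adjusted p below 0.05. The other pan-endothelial genes lie on both sides of 0, with medians of -0.17 and 0.05, and the other endocardial genes have medians of 0.61 and 0.33.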

How the data were processed

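RNA was measured in ventricles of E13.5 embryos, with 3 libraries in each of 6 genotype groups. The authors selected polyadenylated RNA, sequenced the libraries, mapped reads with TopHat 2.1.0 and Bowtie2 to mm10, reduced every sample to the same number of mappable reads and deposited raw counts per Ensembl gene (GRCm38.p6) for each experiment. The overlap rule and the strand setting of the counting are not given in the sources used here. Of 48713 rows in each table, 4 repeated identifiers were kept once, and 0 columns of per-sample values were left unused. ChIP-seq samples of the series were left out.

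Each table was fitted on its own with edgeR 4.0.16 (R 4.3.3, limma 3.58.1): TMM factors, genes with a mean count above 1, a robust quasi-likelihood fit, Benjamini-Hochberg adjustment over all genes tested and a threshold of 0.05. The 12 libraries of the second experiment shared 1 fit. SE and 95% intervals come from that fit, and log2 CPM used a prior count of 2. The script was tested on simulated data. Exon lengths and places came from GENCODE M21. All 10 genes were named. From each list of other genes, the 3 largest changes per comparison were named, provided that the gene passed the test and averaged 5 CPM or more. The genes and lists were chosen with earlier results of these data known. Alternatives were DESeq2 1.42.0, other scaling and filters, fits of 2 groups alone, the replicate number as a block, and leaving out each library.

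Replicate numbers pair the control libraries with LIN9 KO (r of deviations 0.307 to 0.687) and with Sav1 KO (0.136 to 0.374) in the second experiment, as a hint from the data, since the labels give no shared litter or day. In the first experiment r was 0.064 to 0.314, which leaves pairing unclear. The numbers did not pair the double KO with the groups it was compared with.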

Additional observations from a re-analysis of the deposited data

How the results depend on the processing

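Leaving out 1 library gave 2 to 5 genes called in the first experiment, 5 to 7 in the second with Sav1 wt, 5 to 7 with Sav1 KO, 7 to 9 over both Sav1 genotypes and 2 to 6 in the double KO. Of all genes, these fits called 13.8 to 21.5%, 17.2 to 24.1%, 16.9 to 26.7%, 32.5 to 38.2% and 14 to 24.2%. Across 540 such fits of the 10 genes in these 5 comparisons, 502 kept direction and call, 14 lost the call, 14 gained it and 10 turned direction. In the second experiment each of the 12 libraries was left out in turn, also those outside the groups compared. Leaving out such a library changes only the shared fit, so the tally overstates how far the compared libraries were varied. The turns were in genes that had not passed: Cdh5 (-0.33 to 0.082), Tie1 (-0.16 to 0.10) and Npr3 (-0.064 to 0.27) in the first experiment, Cdh5 in the second (-0.31 to 0.063) and Tie1 in the double KO (-0.13 to 0.034). Across 380 fits under other settings, 367 kept direction and call. Tie1 turned sign in the first experiment with library totals alone (-0.016), and in the double KO with edgeR's own expression filter (0.0086) and with the replicate block (0.0011). The cause was not tested.

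With the replicate number as a block, the count in the first experiment was 7 in place of 4, since Kdr (-0.76), Plvap (-0.30) and Tek (0.31) passed, and 25.3% of all genes were called in place of 20.9%. There r of deviations ran from 0.064 to 0.314, against 0.136 to 0.374 for the control and Sav1 KO libraries of the second experiment. These ranges overlap, so whether the numbers pair the samples of the first experiment is unclear. In the double KO the block added Tek (adjusted p = 0.0377), with 22.8% of all genes called, and it changed no other call. The effect of depth was not tested, and libraries of the second experiment hold as few as 115 counts of a member.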
